A study of Mus musculus with 4 samples.

Results

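The cell cycle and DNA replication genes described here are 45 genes taken from a fixed list of names, out of 22911 genes that had at least 1 probe with a RefSeq name on the array. All 45 had a probe (66 probes in all). The rule names genes by function and uses no measured value, but the list was written with earlier results of these data known. The 45 genes comprised 10 of G1 and S-phase entry, 12 of DNA replication, 18 of G2 and mitosis, 3 inhibitors of cyclin-dependent kinases and the polo-like kinase genes Plk2 and Plk3. The samples were mouse peritoneal exudate cells, labelled as peritoneal macrophages, in 4 groups of 1 array each: LysM-St18flox cells after 3 h of LPS (lipopolysaccharide, the bacterial ligand of Toll-like receptor 4), LysM-St18flox cells at 0 h, wild-type cells at 3 h and wild-type cells at 0 h. All mice had received 4% thioglycollate, an irritant that recruits leukocytes, and were lavaged after 3 days, and all cells were kept in medium with 10% serum. The mice's age, sex and number and the LPS dose are not stated in the sources used here. In LysM-St18flox the lysozyme promoter marks the cells in which the floxed St18 gene is meant to be recombined, and macrophages and neutrophils both use that promoter.

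Cells enter the cycle when D-type cyclins with CDK4 or CDK6, and then cyclin E with CDK2, release E2F factors from the retinoblastoma protein. The proteins CDC6 and CDT1 then load the MCM helicase on DNA, and replication follows. Cyclins A and B with CDK1, and the polo-like and Aurora kinases, carry the cell through mitosis, while the inhibitors p21, p27 and p18 hold the kinases back. Recruited peritoneal macrophages mostly do not divide, and LPS is known to halt the growth of macrophages that do.

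All values are differences between single arrays without a replicate check, and no p-value is given. The level of a probe is its normalized log2 signal, the log2 processed intensity minus that of the array's 75th percentile, so that 0 marks the 75th percentile. Levels were compared between arrays within a probe and never between probes. A difference of 1 on this scale is 2-fold, and a gene was counted as higher or lower from 2-fold on. The scanner software's own error of a difference was between 0.20 and 0.30 (log2) for the cell cycle genes, which covers the spot and not the animals or cultures. The 4 arrays shared 1 slide and 1 scan session. The wild-type 0 h array stood apart in 1 respect. A gene's first and second probes differed by a median of 0.41 in the wild-type LPS response and 0.35 in the genotype difference at 0 h, which both use that array, against 0.17 in the LysM-St18flox LPS response and 0.15 in the genotype difference at 3 h. The brightest St18 probe was well above background at -1.66 and -1.31 in wild-type cells (3 h and 0 h) and fell short of that on both LysM-St18flox arrays, and whether it lies in the floxed part is not stated in those sources. All 12 macrophage markers looked for were well above background on all 4 arrays. In these bulk samples, fewer cells of a type and less RNA per cell cannot be told apart.

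Of the 45 genes, 42 were well above background on all 4 arrays by their brightest probe. Ccne2, which encodes cyclin E2, did not reach that mark on any array. Cdk6 and Kif11 were so on some arrays.

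**Figure D1:**
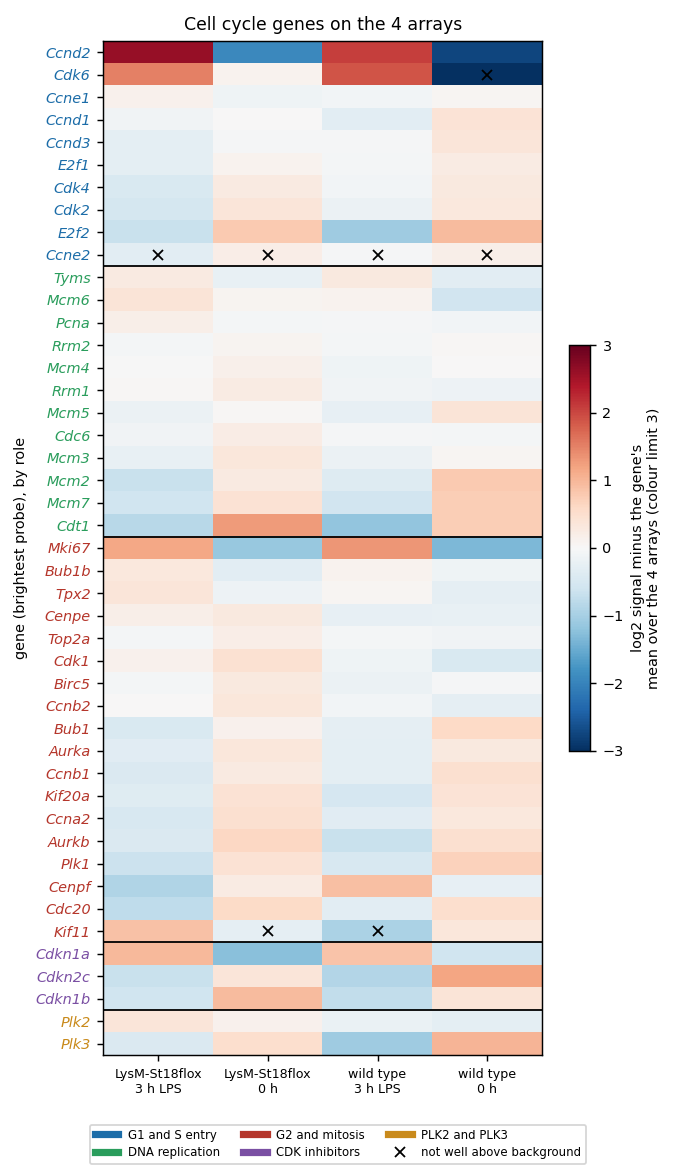
Heat map of the log2 signal of each of the 45 cell cycle genes (rows, brightest probe, grouped by role) on the 4 arrays (columns), minus the gene's mean over the 4 arrays; colours stop at 3 in either direction and crosses mark arrays where the probe was not well above background. Ccnd2, Cdk6, Mki67 and Cdkn1a are redder in both 3 h columns, and E2f2, Cdt1, Cdkn1b and Cdkn2c are bluer there.

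After 3 h of LPS a minority of the cell cycle genes differed 2-fold, and they did not move as a block. Ccnd2, Mki67 and Cdkn1a were higher in both genotypes, and E2f2, Cdt1, Mcm7, Aurkb, Plk1, Cdkn1b and Cdkn2c were lower in both. In LysM-St18flox cells 4 of 43 measured genes were higher (9.3%), where 8.12% of all 12976 measured genes were, and 9 were lower (20.9%), where 8.97% of all were. In wild-type cells 4 of 42 were higher (9.52%), where 9.04% of all 12589 were, and 9 were lower (21.4%), where 11.6% of all were. The median difference was -0.34 in LysM-St18flox cells and -0.29 in wild-type cells, while the medians over all measured genes were -0.09 and -0.11. These LPS responses share no array. Over the 42 genes measured on all 4 arrays 35 had the same sign in both genotypes (83.3%, against 78.5% of all 12344 genes), 3 were higher in both (6.19% of all genes were) and 7 were lower in both (6.26% of all genes were). Across these 42 genes, which are not independent replicates, Pearson's r between the responses was 0.90 and Spearman's rho was 0.78.

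**Figure D2:**
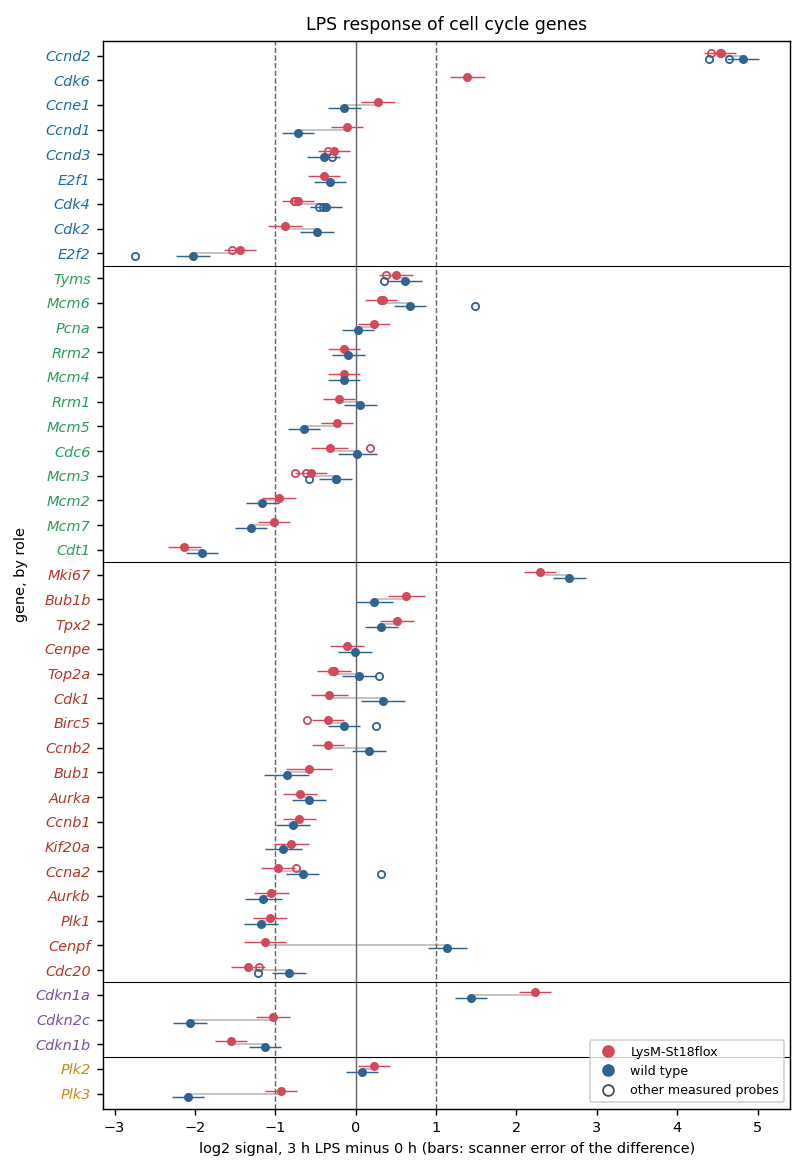
LPS response (log2 signal at 3 h minus 0 h, horizontal axis) of each measured cell cycle gene, grouped by role, in LysM-St18flox cells (red) and wild-type cells (blue). Filled points are the brightest probe with bars for the scanner error, open points are other measured probes, and dashed lines mark 2-fold. Ccnd2 lies farthest right in both genotypes, and the 2 points of Cenpf lie on opposite sides of 0.

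The D-type cyclins, which pair with CDK4 and CDK6 to start the cycle, did not move alike. Ccnd2, which encodes cyclin D2, had a level of 5.35 at 3 h against 0.82 at 0 h in LysM-St18flox cells, and of 4.81 at 3 h against 0.00 at 0 h in wild-type cells. Both stimulated arrays were far above both unstimulated ones, by 23.2-fold (log2 difference 4.53) in LysM-St18flox cells and 28.2-fold (4.82) in wild-type cells. The 2 other Ccnd2 probes gave 4.42 and 4.55 in LysM-St18flox cells and 4.39 and 4.64 in wild-type cells, so all 3 probes lay within 0.5 of each other. Ccnd1, the cyclin D1 gene, differed by -0.11 in LysM-St18flox cells and -0.72 in wild-type cells. Ccnd3, the cyclin D3 gene, differed by -0.27 and -0.40, with its second probe at -0.34 and -0.29. Neither of these cyclin genes reached 2-fold in either genotype.

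The partner kinases of the D-type cyclins also differed from each other. Cdk6 had a level of -0.43 at 3 h against -1.82 at 0 h in LysM-St18flox cells, which is 2.63-fold higher (1.39). In wild-type cells it was at -0.04 at 3 h and not well above background at 0 h (-5.43), which gives a bound of at least 17.2-fold higher. The wild-type 0 h array alone lacked a Cdk6 signal above background, and only 1 probe reports this gene. Cdk4, by contrast, was 1.64-fold lower in LysM-St18flox cells (-0.72) and 1.29-fold lower in wild-type cells (-0.37), and its 2 other probes gave -0.76 and -0.77 in LysM-St18flox cells and -0.46 and -0.41 in wild-type cells.

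Genes acting later in G1 were within 2-fold or lower. Ccne1, which encodes cyclin E1, differed by 0.28 in LysM-St18flox cells and by -0.14 in wild-type cells. Its partner kinase gene Cdk2 differed by -0.88 and -0.48. E2f1, an activator of S-phase genes, differed by -0.39 and -0.32. E2f2, a second activator of the same family, was at -0.37 at 3 h against 1.08 at 0 h in LysM-St18flox cells, and at -0.78 at 3 h against 1.24 at 0 h in wild-type cells. Both stimulated arrays were below both unstimulated arrays, by 2.72-fold in LysM-St18flox cells and 4.07-fold in wild-type cells, and the second probe gave -1.54 and -2.75. Of the G1 and S-entry genes as a group, 2 of 9 were higher (22.2%) and 1 lower (11.1%) in LysM-St18flox cells (median -0.27). Of all measured genes, 8.12% were higher and 8.97% lower there. In wild-type cells 1 of 8 was higher and 1 lower (12.5% each, median -0.38), with Cdk6 higher there by its bound. Of all measured genes, 9.04% and 11.6% were so in wild-type cells.

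Among the replication genes, the licensing factor gene Cdt1 had the largest difference in both genotypes. Its level was 1.72 at 3 h against 3.84 at 0 h in LysM-St18flox cells, and 1.39 at 3 h against 3.30 at 0 h in wild-type cells. It was thus 4.36-fold lower (-2.13) and 3.75-fold lower (-1.91) after LPS, on 1 probe. Cdc6, whose product works beside CDT1 in loading the helicase, differed by -0.32 in LysM-St18flox cells and 0.02 in wild-type cells, and its second probe gave 0.18 in LysM-St18flox cells. In wild-type cells that dim probe was above background at 0 h and not at 3 h, a bound of at least 1.71-fold lower (-0.77).

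The 6 genes of the MCM2 to MCM7 helicase did not share a direction. Mcm7 was at 0.39 at 3 h against 1.41 at 0 h in LysM-St18flox cells and at 0.42 against 1.72 in wild-type cells, which is 2.03-fold and 2.46-fold lower. Mcm2 was 1.93-fold lower in LysM-St18flox cells (-0.95) and 2.23-fold lower in wild-type cells (-1.16). Mcm3 differed by -0.56 and -0.25, Mcm4 by -0.15 and -0.14, and Mcm5 by -0.23 and -0.64. Mcm6 was on the other side of 0, at 0.32 in LysM-St18flox cells and 0.68 in wild-type cells. Its second probe gave nearly the same in LysM-St18flox cells (0.34) and was farther out in wild-type cells (1.48), where the wild-type 0 h value of that probe was -3.96 and those of the other 3 arrays were -2.48 or higher.

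Genes of the replication fork and of nucleotide supply were within 2-fold. Pcna, which encodes the sliding clamp of the DNA polymerases, was at 5.18 at 3 h against 4.94 at 0 h in LysM-St18flox cells and at 4.96 against 4.93 in wild-type cells. These 4 values span little more than the scanner error of a difference. The ribonucleotide reductase genes Rrm1 and Rrm2 differed by -0.21 and -0.14 in LysM-St18flox cells and by 0.06 and -0.09 in wild-type cells. Tyms, the thymidylate synthase gene, was 1.42-fold higher in LysM-St18flox cells and 1.53-fold higher in wild-type cells, and its second probe gave 0.38 and 0.35. In all, 2 of the 12 replication genes were lower and none higher in LysM-St18flox cells (median -0.22, against -0.09 over all measured genes). Of all measured genes, 8.97% were lower and 8.12% higher there. In wild-type cells 3 of the 12 were lower and none higher (median -0.11, the same as all measured genes). Of all measured genes, 11.6% were lower and 9.04% higher in wild-type cells.

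Mki67, which encodes the proliferation antigen Ki-67, was higher after LPS and stood apart from the other genes of G2 and mitosis. The promoters shown here are those of Mki67, of Cdc20, the mitotic gene with the lowest LysM-St18flox response, and of Cdk1, which was within 2-fold. They let the reader set genes of 1 class with different responses side by side. Capitals mark letters of the CHR element (TTTGAA or TTCGAA), of the CCAAT box (CCAAT) and of E2F sites (TTTCGCGC, TTTGGCGC or GGCGGGAA) on either strand. Each is the RefSeq window of 250 bases before the gene's start in build GRCm38.p6, read 5′ to 3′ along the gene, which lies on the minus strand in all 3 cases (chr7:135716380-135716629 for Mki67, chr4:118437344-118437593 for Cdc20 and chr10:69352913-69353162 for Cdk1).
Mki67: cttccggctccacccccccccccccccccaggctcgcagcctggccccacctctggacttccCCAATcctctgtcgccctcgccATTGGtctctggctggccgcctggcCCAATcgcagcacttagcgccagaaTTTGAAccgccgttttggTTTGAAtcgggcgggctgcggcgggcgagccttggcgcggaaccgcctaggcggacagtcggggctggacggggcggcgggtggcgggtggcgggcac
Cdc20: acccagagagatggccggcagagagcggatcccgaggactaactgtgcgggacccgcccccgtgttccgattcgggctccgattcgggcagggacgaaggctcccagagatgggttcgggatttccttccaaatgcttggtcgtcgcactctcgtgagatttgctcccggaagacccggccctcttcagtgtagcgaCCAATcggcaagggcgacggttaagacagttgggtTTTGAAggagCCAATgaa
Cdk1: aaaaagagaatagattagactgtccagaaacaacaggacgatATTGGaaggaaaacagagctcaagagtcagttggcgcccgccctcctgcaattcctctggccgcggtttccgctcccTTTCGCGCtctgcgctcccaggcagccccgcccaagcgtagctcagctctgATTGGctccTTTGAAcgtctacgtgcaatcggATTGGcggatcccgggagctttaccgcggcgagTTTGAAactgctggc
All 3 windows hold CHR and CCAAT letters, and that of Cdk1 also holds an E2F match. Of the 37 cell cycle genes with a window (the first listed for each gene), 14 belonged to G2 and mitosis, and CCAAT letters were in 13 of those and CHR letters in 7, against 34.5% and 17.4% of all 27025 windows. Of the 11 replication genes with a window, 8 held CCAAT letters, 3 an E2F match (2.52% of all windows) and 2 CHR letters. None of the 3 inhibitor genes held a CHR or E2F match. No matches of different motifs overlapped in these windows. A match is a description of the letters, and binding was not measured.

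The level of Mki67 was 3.31 at 3 h against 1.02 at 0 h in LysM-St18flox cells, and 3.46 at 3 h against 0.80 at 0 h in wild-type cells. Both stimulated arrays were above both unstimulated arrays, by 4.89-fold (2.29) and 6.32-fold (2.66). Only 1 probe reports Mki67, so no second probe could be set beside it. Top2a, the DNA topoisomerase gene often used beside Ki-67 as a mark of dividing cells, differed by -0.27 in LysM-St18flox cells and 0.04 in wild-type cells, with its second probe at -0.30 and 0.29. The kinetochore motor gene Cenpe differed by -0.11 and -0.01, and Birc5, which encodes survivin, by -0.34 and -0.14. The second Birc5 probe gave -0.61 in LysM-St18flox cells and 0.25 in wild-type cells, where it opposed the first.

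Of the mitotic kinases, Plk1 and Aurkb were at least 2-fold lower after LPS in both genotypes, and Aurka, Cdk1 and the cyclin genes were within 2-fold. Plk1, the polo-like kinase of mitotic entry, was at -1.14 at 3 h against -0.07 at 0 h in LysM-St18flox cells (2.10-fold lower) and at -0.97 against 0.21 in wild-type cells (2.27-fold lower). Aurkb, the kinase of the chromosomal passenger complex, was 2.06-fold lower (-1.05) and 2.22-fold lower (-1.15), and Aurka, the spindle pole kinase gene, differed by -0.69 and -0.58. The cyclin genes Ccna2 and Ccnb1 differed by -0.97 and -0.70 in LysM-St18flox cells and by -0.66 and -0.78 in wild-type cells. Cdk1, their partner kinase, differed by -0.33 in LysM-St18flox cells and 0.34 in wild-type cells, and Ccnb2 by -0.34 and 0.17. The second Ccna2 probe gave -0.74 in LysM-St18flox cells and 0.31 in wild-type cells, where it opposed the first.

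Cdc20, which activates the anaphase-promoting complex, was at -1.73 at 3 h against -0.39 at 0 h in LysM-St18flox cells and at -1.29 against -0.46 in wild-type cells. It was 2.54-fold lower in LysM-St18flox cells and 1.78-fold lower in wild-type cells by its first probe, while the second gave -1.20 and -1.21, past 2-fold in both. The spindle checkpoint genes parted: Bub1 differed by -0.58 and -0.86, and Bub1b by 0.63 and 0.23. Of the spindle motor and assembly genes, Kif20a differed by -0.80 and -0.90, and Tpx2 by 0.51 and 0.32.

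A pair of dim genes of this class had opposite signs in the 2 genotypes past 2-fold, and Cdk1, Ccnb2 and Top2a had so within 2-fold. Cenpf, which encodes a kinetochore protein, was at -3.49 at 3 h against -2.35 at 0 h in LysM-St18flox cells, 2.19-fold lower, and at -1.68 against -2.82 in wild-type cells, 2.20-fold higher. The wild-type 3 h array was the highest of the 4 and the LysM-St18flox 3 h array the lowest. Its second probe was above background at 0 h alone and was lower at 3 h in both genotypes, by bounds of -0.83 and -0.85, so the 2 probes of Cenpf had opposite signs in wild-type cells. Kif11, a spindle motor gene, was above background in LysM-St18flox cells at 3 h (-2.84) and in wild-type cells at 0 h (-3.38) only. It was at least 2.24-fold higher after LPS in LysM-St18flox cells and at least 2.03-fold lower in wild-type cells, on 1 probe close to background.

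As a group, 1 of 17 measured genes of G2 and mitosis was higher (5.88%) and 4 were lower (23.5%) in LysM-St18flox cells. Of all measured genes, 8.12% were higher and 8.97% lower there. In this genotype 14 of the 17 were below 0, where 57.0% of all genes were, with a median of -0.58. In wild-type cells 2 were higher and 2 lower (11.8% each), where 9.04% and 11.6% of all genes were. There 10 were below 0, where 56.8% of all genes were, with a median of -0.14. The wild-type median was on the other side of 0 when second probes were used (0.27).

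The 3 inhibitor genes were each past 2-fold in both genotypes, in opposite directions. Cdkn1a, which encodes p21, was at 4.73 at 3 h against 2.50 at 0 h in LysM-St18flox cells and at 4.60 against 3.16 in wild-type cells. Both stimulated arrays were above both unstimulated ones, by 4.69-fold (2.23) and 2.71-fold (1.44). Cdkn1b, which encodes p27, was at 0.97 at 3 h against 2.52 at 0 h in LysM-St18flox cells and at 0.82 against 1.95 in wild-type cells, 2.92-fold and 2.19-fold lower. Cdkn2c, which encodes p18, an inhibitor of CDK4 and CDK6, was at -1.05 against -0.02 in LysM-St18flox cells and at -1.25 against 0.81 in wild-type cells, 2.04-fold and 4.17-fold lower. The second Cdkn1a probe was never well above background, and the other 2 genes had 1 probe.

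Plk2 and Plk3 belong to the polo-like kinase family but answer stress signals rather than drive mitosis. Plk2 differed by 0.23 in LysM-St18flox cells and by 0.08 in wild-type cells. Plk3 was at 0.58 at 3 h against 1.52 at 0 h in LysM-St18flox cells and at -0.05 against 2.04 in wild-type cells, 1.91-fold and 4.27-fold lower. The wild-type array was the higher one at 0 h and the lower one at 3 h.

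**Figure D3:**
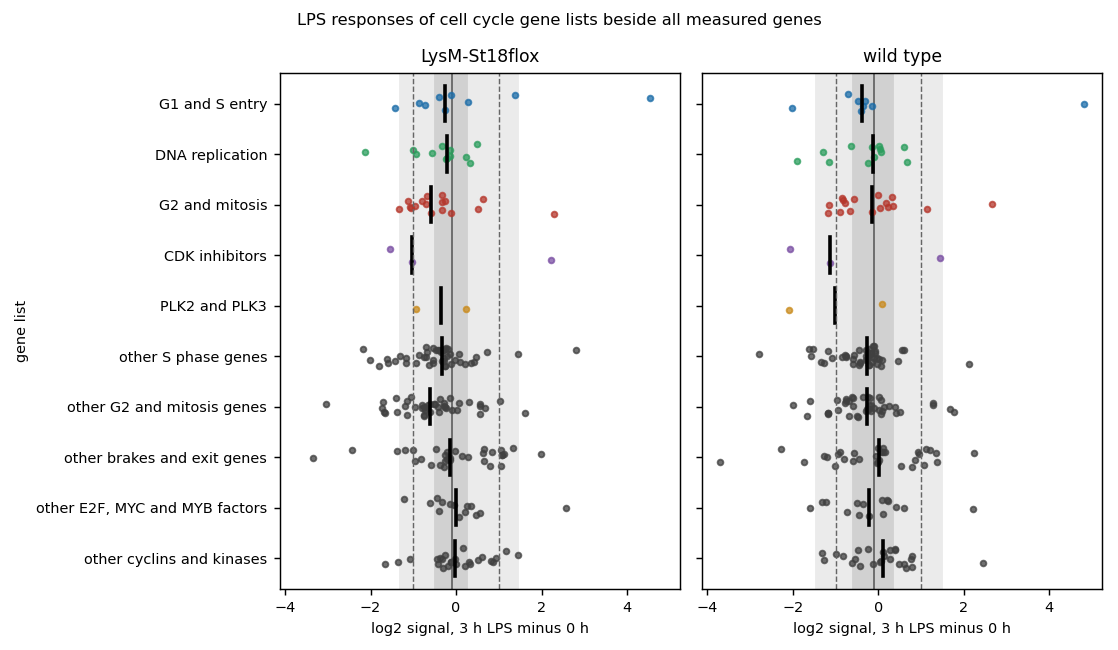
LPS responses (log2 signal at 3 h minus 0 h) of single genes (points) and list medians (black bars) for the 5 role groups and 5 further lists of cell cycle genes, in LysM-St18flox cells (left) and wild-type cells (right). Dark and light grey bands hold the middle 50% and middle 90% of all measured genes, the grey line is their median, and dashed lines mark 2-fold; the G2 and mitosis bar lies at -0.58 on the left and -0.14 on the right.

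A wider set of cell cycle genes (183 further names, 1 without a probe) was examined the same way. Of other S-phase genes, 2 of 46 were higher (4.35%) and 9 lower (19.6%) in LysM-St18flox cells (median -0.34). In wild-type cells 1 of 45 was higher (2.22%) and 8 lower (17.8%, median -0.26). Over all measured genes these shares were 8.12% and 8.97% in LysM-St18flox cells and 9.04% and 11.6% in wild-type cells. Lower in both were Gmnn, the geminin gene whose product blocks CDT1 (-2.17 in LysM-St18flox cells, -1.57 in wild-type cells), the maintenance DNA methyltransferase gene Dnmt1 (-2.01 and -2.80), Cdca7 (-1.80 and -1.63), Chaf1a (-1.62 and -1.34), Atad2 (-1.59 and -1.53) and the polymerase subunit gene Pole2 (-1.42 and -1.18). Timeless, a replication fork protection gene, was higher by 7.01-fold and 4.35-fold, and its second probe gave 2.72 and 1.94.

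Other genes of G2 and mitosis had 2 of 42 higher (4.76%) and 11 lower (26.2%) in LysM-St18flox cells (median -0.61), where 8.12% and 8.97% of all genes were. In wild-type cells 4 of 42 were higher (9.52%) and 6 lower (14.3%, median -0.26), where 9.04% and 11.6% of all genes were. Cdc25b, a phosphatase gene that activates CDK1, was 8.21-fold and 3.99-fold lower. Also lower in both were Ccnf (-1.73 and -1.17), the separase gene Espl1 (-1.66 and -1.18), the centromeric histone gene Cenpa (-1.41 and -1.67), Kif23 (-1.38 and -1.60, with its second probe at -1.17 and -0.56) and Kif22 (-1.15 and -1.18). The securin gene Pttg1, whose product holds separase inactive, was higher (1.61 and 1.67, second probe 3.15 and 2.68), as was Cks2 (1.02 and 1.78), which encodes a CDK-binding subunit.

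Other brakes and exit genes were spread in both directions. In LysM-St18flox cells 7 of 32 were higher (21.9%) and 5 lower (15.6%), where 8.12% and 8.97% of all genes were. In wild-type cells 6 were higher and 6 lower (18.8% each), where 9.04% and 11.6% of all genes were. The list medians, -0.15 and 0.01, changed sign with second probes (LysM-St18flox cells) and with quantile normalization and the deposited values (wild-type cells). Sesn1, a p53 target gene, was 10.2-fold and 13.0-fold lower. The gene of the CDK1-inhibiting kinase Wee1 was lower (-2.44 and -2.28), as were the MYC-antagonist gene Mxi1 (-1.38 and -1.28) and Rbl2 (-1.01 and -1.74), a gene of the retinoblastoma family. The stress-response gene Gadd45b was 3.94-fold and 4.69-fold higher, and Btg1 (1.12 and 1.35), Pkmyt1 (1.07 and 1.12) and E2f5 (1.07 in both) were higher too. The second Btg1 probe gave 0.26 and -0.10.

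Of other E2F, MYC and MYB factors, 1 of 14 was higher and 1 lower (7.14% each) in LysM-St18flox cells, near the 8.12% and 8.97% of all genes. In wild-type cells 1 of 15 was higher (6.67%) and 3 lower (20.0%), where 9.04% and 11.6% of all genes were. The repressor gene E2f8 was 5.98-fold and 4.61-fold higher, beside the lower E2f2, and the E2F partner gene Tfdp2 was lower (-1.23 and -1.60). Of other cyclins and kinases, 2 of 25 were higher and 3 lower in LysM-St18flox cells, against 1 and 2 in wild-type cells, with Cdc14a higher in both (1.46 and 2.44) and Cdk18 (-1.09 and -1.28) and the checkpoint kinase gene Chek2 (-1.66 and -1.31) lower in both. Their medians were -0.02 and 0.12, and the first changed sign with median centring. The median LPS response of every marker list of another cell type lay between -0.49 and 0.42 in both genotypes.

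The genotype comparison asked whether cycle genes differed between LysM-St18flox and wild-type cells. After 3 h of LPS, 1 of 43 measured genes was at least 2-fold apart: Cenpf was lower in LysM-St18flox cells (-3.49, against -1.68 in wild-type cells, log2 difference -1.81), where 1.4% of all 13049 measured genes were lower, and none was higher, where 1.82% of all were. At 0 h none of the 42 measured genes was 2-fold apart in either direction by its brightest probe. Of all 12679 genes, 3.04% were higher and 3.03% lower. The medians were 0.10 at 3 h and 0.06 at 0 h, and -0.01 and -0.03 over all measured genes. With second probes, which cover fewer genes, the cell cycle medians were -0.08 at both times. No cell cycle gene was 2-fold apart in the same direction at both times, where 0.834% of all genes were higher and 0.454% lower at both. The differences at 3 h and 0 h, which share no array, had the same sign for 24 of 42 genes (57.1%, against 63.1% of all genes), with a Pearson's r of 0.06 and a Spearman's rho of 0.25 across these genes.

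**Figure D4:**
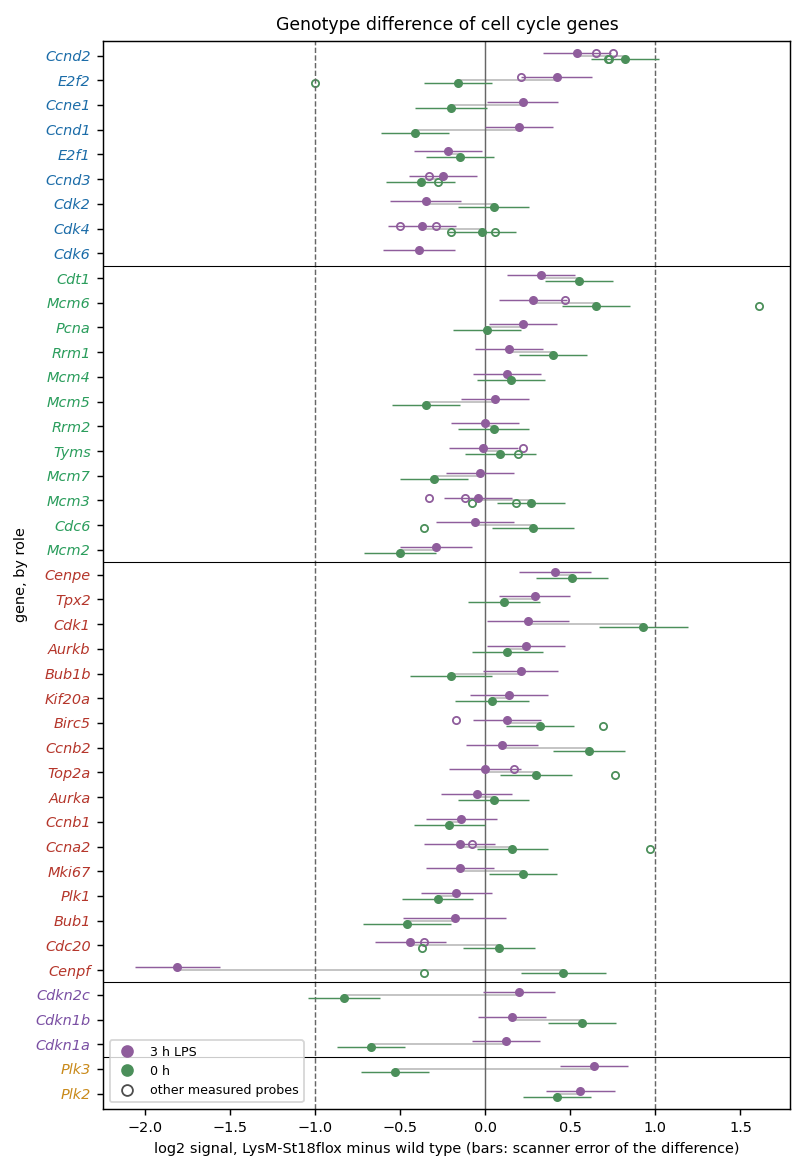
Genotype difference (log2 signal in LysM-St18flox minus wild-type cells, horizontal axis) of each measured cell cycle gene at 3 h of LPS (purple) and at 0 h (green), grouped by role. Filled points are the brightest probe with bars for the scanner error, open points are other measured probes and dashed lines mark 2-fold; apart from Cenpf at 3 h, all filled points lie within 2-fold.

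Ccnd2 was on the same side at both times, 0.54 at 3 h and 0.82 at 0 h, and its 2 other probes gave 0.75 and 0.65 at 3 h and 0.72 and 0.73 at 0 h. All 3 probes were thus higher in LysM-St18flox cells at both times, within 2-fold. Cdk6 differed by -0.39 at 3 h and, with LysM-St18flox cells higher, by at least 5.01-fold at 0 h, a bound that rests on the wild-type 0 h array. The bound for Kif11 at 3 h was at least 2.96-fold, with LysM-St18flox cells higher, and at 0 h it was at least 1.54-fold, with LysM-St18flox cells lower. Mcm6 differed by 0.28 at 3 h and 0.65 at 0 h, and its second probe by 0.47 and 1.61. Plk2 differed by 0.56 at 3 h and 0.42 at 0 h.

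Against the wild-type 0 h array, which stood apart by its probes, unstimulated LysM-St18flox cells had 13 of 17 genes of G2 and mitosis above wild-type cells (median 0.13, where 46.9% of all measured genes were above 0), led by Cdk1 (0.93), Ccnb2 (0.61) and Cenpe (0.51), and 9 of 12 replication genes (median 0.12). At 3 h, 8 of the 17 mitotic genes were above 0, where 47.5% of all measured genes were, with a median of 0.00. Of the replication genes, 7 of 12 were above 0 at 3 h (median 0.03). The other S-phase genes had 31 of 45 above 0 at 3 h (median 0.09) and 30 of 46 at 0 h (median 0.16). The G1 and S-entry genes went the other way, with 4 of 9 above 0 at 3 h (median -0.22) and 2 of 8 at 0 h (median -0.16). The further genes of G2 and mitosis gave 20 of 43 above 0 at 3 h (median -0.03) and 33 of 42 at 0 h (median 0.28, and between 0.17 and 0.28 in the other settings). Cdk1 is dim, with its lowest level on the wild-type 0 h array (-3.07), and with normexp background correction it differed by 0.39 at 0 h. The inhibitor genes were on both sides at 0 h: Cdkn2c at -0.83, Cdkn1a at -0.67 and Cdkn1b at 0.57, against 0.20, 0.12 and 0.16 at 3 h. The other brakes and exit genes had 1 of 32 higher (3.12%) and none lower at 3 h (median 0.01), where 1.82% and 1.4% of all genes were. At 0 h 2 were higher (6.25%) and 3 lower (9.38%, median 0.03), where 3.04% and 3.03% of all genes were. Of that list Cdkn1c, which encodes p57, another inhibitor of cyclin-dependent kinases, was higher in LysM-St18flox cells at both times, by 1.59 at 3 h and 1.89 at 0 h. At 0 h its level was 1.64 in LysM-St18flox cells and -0.25 in wild-type cells, and both LysM-St18flox arrays were above both wild-type arrays, on 1 measured probe.

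Markers of other cell types moved with genotype beside these values. All 10 B cell markers were well above background on both LysM-St18flox arrays and 7 of 10 on both wild-type arrays, and their summed signal, in multiples of the array's 75th percentile, was 18.4 and 23.1 in LysM-St18flox cells (3 h and 0 h) and 3.17 and 4.04 in wild-type cells. Markers of T and NK cells were above background for 10 and 9 of 12 in LysM-St18flox cells and 10 and 8 of 12 in wild-type cells, with sums of 12.3 and 10.4 against 6.84 and 7.61. Erythroid markers were above background for 6 and 6 of 8 in LysM-St18flox cells, with sums of 96.6 and 82.7, and for 5 and 4 of 8 in wild-type cells, with sums of 9.74 and 11.3. Large peritoneal macrophage markers were split, with 8 of 11 above 0 at 3 h and 7 of 11 at 0 h (medians of the genotype difference 0.39 and 0.69), while their sums were 119 and 112 in LysM-St18flox cells and 152 and 167 in wild-type cells. Neutrophil markers were also split, with 3 of 10 at least 2-fold lower and 1 higher in LysM-St18flox cells at 3 h and 4 of 11 lower and none higher at 0 h (medians -0.25 and -0.23), and their sums were 174 and 164 in LysM-St18flox cells against 248 and 162 in wild-type cells. Of the neutrophil markers, S100a8 and S100a9 differed by -1.84 and -2.74 at 3 h and by -1.73 and -2.25 at 0 h, while Retnlg differed by 1.11 and 0.81. The median genotype difference at 3 h and 0 h was 1.51 and 0.98 for mast cell markers, 0.79 and 0.99 for eosinophil markers, 0.21 and 0.66 for dendritic cell markers, -0.09 and -0.27 for macrophage markers, and -1.45 and -1.10 for mesothelial and fibroblast markers. Their part in the differences of the cell cycle genes was not tested.

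The difference between the LPS responses (LysM-St18flox minus wild type) asked whether genotype changed the response. Plk3 (1.16) and Cdkn2c (1.03) were at least 2-fold apart upward, as both were lower after LPS by less in LysM-St18flox cells, where 2.9% of all 12344 genes were, and Cenpf (-2.27) was so downward, where 2.41% were. The remaining 39 of 42 genes were within 2-fold, among them Cdkn1a at 0.79, Ccnd1 at 0.61, E2f2 at 0.58, Cdk1 at -0.67 and Ccnd2 at -0.28. The median was -0.06, and 0.03 over all genes. The second probe of E2f2 gave 1.21, that of Mcm6 -1.14 and that of Ccna2 -1.04. All of these differences use the wild-type 0 h array, which held the highest of the 4 levels of Plk3 and of Cdkn2c. The further genes of G2 and mitosis had 33 of 42 below 0, where 47.2% of all measured genes were, with a median of -0.30 and 1 of them at least 2-fold lower, Cdc25b at -1.04. None of these differences has a replicate check.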

How the data were processed

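RNA of 4 samples was hybridised in 1 colour (Cy3) to Agilent arrays. The deposited scanner files hold background-subtracted processed signal intensity, and per the file headers the authors made them with Agilent Feature Extraction version 11.0.1.1. The authors' deposited table holds log2 values of 25482 probes whose normalization the sources used here do not state. Each of its columns matched its own scanner file best, and it served as an alternative. Flags for background, saturation and outliers were read from the deposited files as other codes.

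Spots of a probe were averaged, each array's 75th percentile (882, 1067, 755 and 672 intensity units in LysM-St18flox 3 h, LysM-St18flox 0 h, wild-type 3 h and wild-type 0 h) was subtracted on the log2 scale, and between 52.2% and 55.6% of spots were well above background. RefSeq accessions gave 1 symbol to 32994 of 56605 probes and none to 23611. The brightest probe stood for a gene. A gene was measured in a comparison when well above background, unsaturated and not an outlier on both arrays. Where 1 side was not above background, the bound used the array's lowest above-background value, or the dim probe's own where that was higher. The calculation was tested on simulated data with changes larger than 2-fold. That test bears on the calculation and not on the calls near 2-fold. The members and lists were chosen with earlier results of these data known. Further cell cycle genes were named where 2-fold in both genotypes or, by genotype, at both times, up to 6 and 3 a list and direction, with LPS by the largest mean difference. The alternatives were normexp, quantile, median centring, the deposited values, second probes, the mean of probes, no background filter, a stricter filter and a 1.5-fold threshold. With 1 array per group no comparison has a replicate check. A fit of genotype and LPS as additive terms, which would take their interaction as error, was not run.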

Additional observations from a re-analysis of the deposited data

Results flagged for a closer look

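Cenpf had LPS responses of opposite sign in the genotypes, -1.13 in LysM-St18flox cells and 1.14 in wild-type cells, a difference of -2.27. It drew attention because the 1 array pair of each genotype moved a different way, and with 1 array a group the difference was not tested. With normexp background correction the difference was -1.19, and the gene's second probe was not well above background on either 3 h array.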

How the results depend on the processing

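Each group holds 1 array and the labels give no replicate numbers to pair; a fit of the LPS effect with genotype as a block was not run. Of the 27 differences of 2-fold or more in the LPS responses and genotype differences, 21 stayed 2-fold under every alternative that gave a value, and 0 changed sign where both arrays measured the probe. The filter settings could only repeat such a difference or give no value. The mean of probes could only repeat it for the 28 cell cycle genes with 1 probe. Those settings therefore could not change such a call. The second Cenpf probe gave only a bound in wild-type cells, -0.85, opposite in sign to the first. In LysM-St18flox cells Mcm7 (-1.06 to -0.98), Cenpf (-1.13 to -0.65), Aurkb (-1.05 to -0.75) and Cdkn2c (-1.03 to -0.96) crossed 2-fold, as did Cenpf (0.53 to 1.29) and Aurkb (-1.15 to -0.98) in wild-type cells. With second probes, which cover fewer genes, 1 gene was higher and 2 lower after LPS in LysM-St18flox cells, 2 higher and 2 lower in wild-type cells, 1 higher at 0 h and 0 lower at 3 h by genotype, and 1 higher and 2 lower in the difference of the LPS responses. Medians with second probes were 0.26 for replication genes (LysM-St18flox LPS response), 0.25 for all cell cycle genes (wild-type LPS response), -0.08 for their genotype differences at both times, and 0.69 (0 h) and -0.73 (difference of the responses) for G2 and mitosis. At 1.5-fold, 17 of 43 measured genes were lower in LysM-St18flox cells and 16 of 42 in wild-type cells after LPS. By genotype 4 were higher and 2 lower at 0 h, and 1 was higher at 3 h. Shares of all genes at 1.5-fold or under the other alternatives are not given here, so these counts do not set cell cycle genes apart. The mean of all probes gave 1 higher at 0 h. Without the background filter 1 was higher at 0 h, 1 higher at 3 h and 2 lower in the difference, and the median of all genes in the LysM-St18flox LPS response was -0.36 in place of -0.09. The cause of these changes was not tested, except that second probes and the filter change which genes are counted. Dim genes, among them Cenpf, Kif11, Cdk6, Cdk1, Bub1 and Cdc6, are limited by signal over background. Single arrays leave the spread between animals unknown.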
